A study of Mus musculus with 6 samples.

Results

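The genes described here encode the presynaptic machinery of transmitter release, together with the paralogs that the ribbon synapses of the retina use. They were chosen by symbol as a list of 33 genes, and all 33 were among the 22173 genes listed for mouse retina. RNA of whole retina was measured at postnatal day 17 in 6 libraries of wild-type C57BL/6J pups. The 3 libraries of oxygen-induced retinopathy (OIR) came from pups that breathed 75% oxygen from day 7 to day 12 and room air from day 12 to day 17. The 3 Control libraries came from pups in room air from day 7 to day 17. In the OIR model, the oxygen phase stops and reverses vessel growth in the retina, and the poorly perfused tissue then becomes hypoxic and grows abnormal vessels. The sources used here do not say if a library held 1 animal or a pool, nor if replicates were separate animals, so p-values measure the spread between these libraries, which may in part be technical.

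At a synapse, vesicles fuse when the vesicle SNARE proteins (Vamp genes) zip together with the plasma membrane SNAREs (Snap25 and the syntaxins). Calcium that enters through channels at the active zone is sensed by synaptotagmins, while complexins hold and promote the assembled SNAREs, and the ATPase NSF takes them apart afterwards. Amacrine and ganglion cells of the retina form conventional synapses of this kind. Photoreceptors and bipolar cells instead release glutamate continuously at ribbon synapses, which are built on the protein RIBEYE, use syntaxin 3 in place of syntaxin 1 and the complexins Cplx3 and Cplx4 in place of Cplx1 and Cplx2, and lack synapsins. On this background, Stx1a, Cplx1, Cplx2, Syn1, Syn2 and Syn3 were counted as conventional, Stx3, Cplx3, Cplx4 and Ctbp2 as ribbon genes, and the other 23 genes were assigned to neither.

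The libraries held 35615501 to 38025623 reads, as recovered from the step size of the deposited values. Markers of rods, cones, bipolar, amacrine, ganglion, horizontal and Müller cells were present in every library. Reads from 18 lens genes made up 0.551% of OIR 2 and 6.29% of Control 3, called lens-rich here, and between 0.0147% and 0.0577% of each other library. Of 12112 genes tested with limma on log2(RPKM + 1), 1407 (11.6%) were higher and 875 (7.22%) lower in OIR at an adjusted p under 0.05. Higher genes were 61.7% of these calls, and 49.4% with median-of-ratios scaling. RPKM is the read number per gene length and library size.

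Presynaptic genes fell more often than they rose. Of the 32 members that reached the minimum for testing (at least 1 RPKM in 3 libraries), 11 were lower in OIR (34.4%, against 7.22% of all genes tested) and 0 were higher (against 11.6%). These 11 genes were Snap25, Vamp1, Napb, Syt4, Cplx1, Cplx2, Syn1, Syn2, Rab3a, Rab3c and Rims1. At an unadjusted p under 0.05 there were 15 members lower and 2 higher (Doc2b and Unc13a), and limma-voom on the recovered reads called 9 lower and 0 higher. The log2 fold changes of the 32 genes had a median of -0.19, against 0.03 for all genes tested, and ran from -0.87 for Rab3c to 0.22 for Doc2b. The groups did not overlap in 13 members lower in OIR, against 15.0% of all genes, and in 1 member higher in OIR, against 23.6%. In whole retina, fewer cells of a type and less RNA per cell cannot be told apart.

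**Figure D1:**
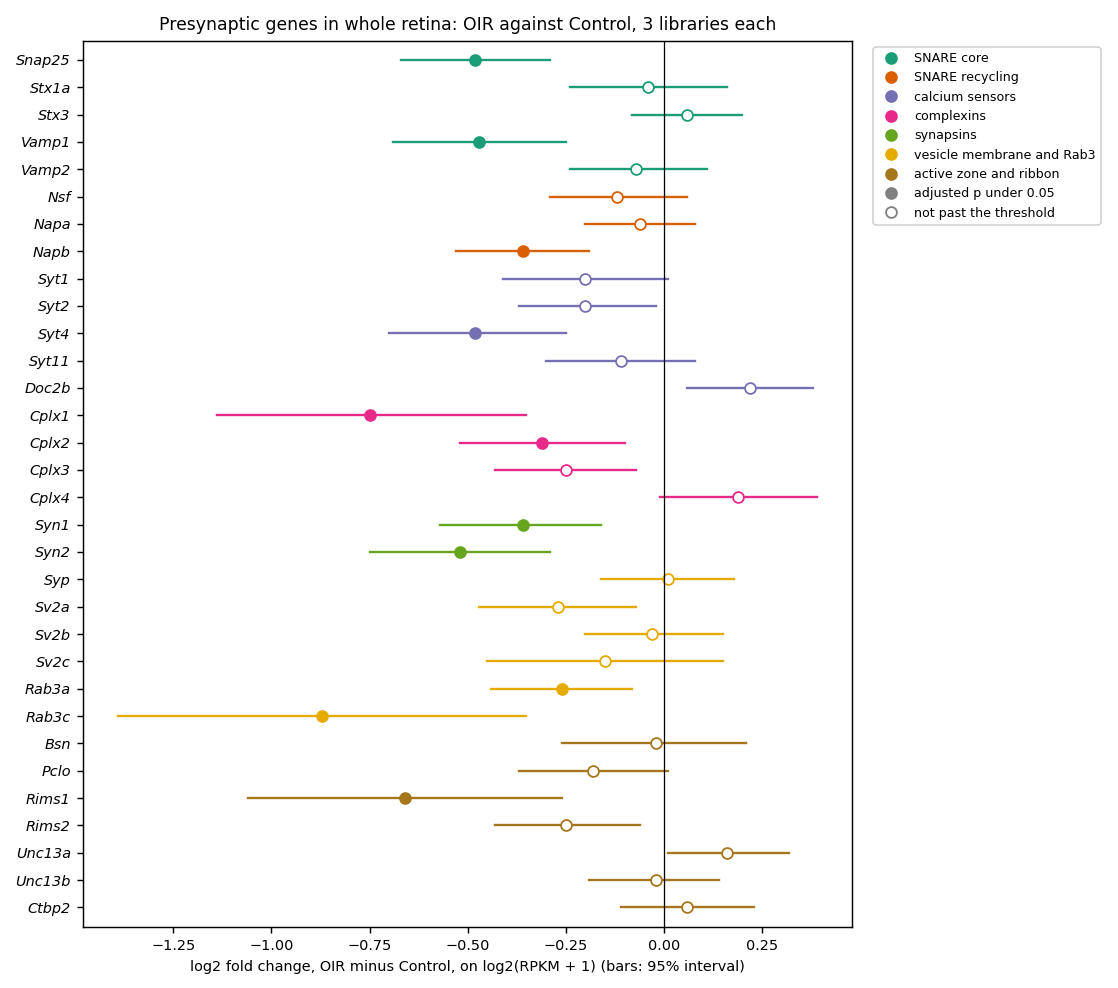
Log2 fold change of OIR minus Control for the 32 tested presynaptic genes on the log2(RPKM + 1) scale, ordered and coloured by role, with 95% intervals from limma. Filled points passed an adjusted p of 0.05, and all 11 of them lie left of 0, from -0.26 for Rab3a to -0.87 for Rab3c.

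Levels spanned a wide range. Per length, the vesicle protein gene Syp had the highest mean over the 6 libraries, at 589.8 RPKM, followed by Snap25 at 475.6 and Vamp2 at 472.4. The ribbon genes Cplx4 and Stx3 were at 270.6 and 106.1 RPKM, and the conventional genes Cplx1 and Stx1a at 74.3 and 6.29 RPKM. Syn3 was the lowest, at 0.466 RPKM, and was not tested.

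Among the core SNARE genes, 2 of 5 fell and 0 rose. Snap25, the gene of the plasma membrane SNARE shared by both kinds of synapse, was at 372.8, 434.4 and 384.8 RPKM in OIR 1, 2 and 3, against 591.3, 564.2 and 506.5 RPKM in Control 1, 2 and 3. Every OIR library lay below every Control library, with a mean 28.3% lower. Its log2 fold change was -0.48 ± 0.0855 (SE, n = 3 each), with a limma adjusted p of 0.00552. Vamp1, a vesicle SNARE gene, had 23.0, 30.3 and 25.0 RPKM in the OIR libraries, against 39.7, 34.8 and 34.9 RPKM in the Control libraries, also without overlap. Its log2 fold change was -0.47 ± 0.0987 (limma adjusted p 0.0112). The far more abundant vesicle SNARE gene Vamp2 did not pass, at 461.0 ± 12.6 RPKM in OIR and 483.8 ± 44.3 RPKM in Control (SD, n = 3 each). The 95% interval of its log2 fold change ran from -0.24 to 0.11. Vamp2 was called lower without both lens-rich libraries (limma adjusted p 0.0461).

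The syntaxins of the 2 synapse types did not pass either. Stx3, the syntaxin of ribbon synapses, was at 110.1, 108.0 and 107.1 RPKM in OIR, against 103.9, 108.8 and 99.0 RPKM in Control, so that the groups overlapped. Its log2 fold change was 0.06, with a 95% interval from -0.08 to 0.20 and a limma adjusted p of 0.538. Stx1a, the syntaxin of conventional synapses, was at 5.68, 7.18 and 5.76 RPKM in OIR, against 6.42, 6.22 and 6.49 RPKM in Control. The single value of OIR 2 was the highest of all 6, and the interval ran from -0.24 to 0.16 around -0.04 (adjusted p 0.789).

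Of the 3 genes that recycle SNAREs, 1 fell and 2 did not pass, all with a log2 fold change below 0. Napb, which encodes the beta-SNAP adaptor that recruits NSF in neurons, fell to 68.7, 77.4 and 68.7 RPKM in the OIR libraries, against 96.8, 95.9 and 84.1 RPKM in the Control libraries. Its groups did not overlap, and its log2 fold change was -0.36 ± 0.0777 (limma adjusted p 0.0117). Its paralog Napa, the widely expressed alpha-SNAP gene, did not pass, at 95.9 ± 2.68 RPKM in OIR and 100.1 ± 3.96 RPKM in Control. Nsf, the gene of the ATPase itself, was at 210.7 ± 5.23 RPKM in OIR and 229.0 ± 22.3 RPKM in Control, with an adjusted p of 0.339. Nsf was called lower without Control 3 (adjusted p 0.0328) and without both lens-rich libraries (0.00954). Differences between these genes were not tested.

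Of the 5 genes of calcium sensors and related proteins, Syt4 fell and the other 4 did not pass. Syt4 encodes a synaptotagmin that does not itself trigger fast release. It was at 15.3, 18.3 and 14.1 RPKM in OIR, against 24.7, 22.3 and 20.2 RPKM in Control, so every OIR library was below every Control library. The log2 fold change was -0.48 ± 0.102 (limma adjusted p 0.0122). Syt1, the main sensor gene of fast release, had 259.1, 288.6 and 261.6 RPKM in OIR, against 341.1, 326.6 and 266.1 RPKM in Control, and OIR 2 lay above Control 3. Its log2 fold change of -0.20 did not pass (adjusted p 0.170), but it did without Control 3 (0.0207). Syt2, another fast sensor gene, averaged 3.73 ± 0.174 RPKM in OIR and 4.42 ± 0.329 RPKM in Control, without overlap but with an adjusted p of 0.114. Syt11, a relative of Syt4, averaged 57.4 ± 2.65 RPKM in OIR and 62.1 ± 7.36 RPKM in Control. Without both lens-rich libraries, Syt1, Syt2 and Syt11 were called lower (limma adjusted p 0.000999, 0.0292 and 0.0222). Syt2 was also called lower with median-of-ratios scaling (limma adjusted p 0.0488).

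Doc2b was the one member with no overlap and a higher level in OIR. It encodes a sensor with high calcium affinity that takes part in asynchronous and spontaneous release. It was at 37.3, 37.1 and 33 RPKM in the OIR libraries, against 31.4, 31.5 and 28.7 RPKM in the Control libraries. The log2 fold change of 0.22 ± 0.0717 narrowly missed the threshold (limma adjusted p 0.0537).

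The complexin family holds 2 conventional and 2 ribbon genes, of which the conventional 2 fell. The windows of 250 bases before the RefSeq start sites (GRCm38.p6, minus strand) are printed for Cplx1 at chr5:108550028-108550277 and Cplx3 at chr9:57606282-57606531, since these paralogs carry the ratio described further on. Syn1 at chrX:20920919-20921168 is added as a conventional gene that fell, and Ctbp2 at chr7:133015248-133015497 as the start that leads to the ribbon protein.
Cplx1: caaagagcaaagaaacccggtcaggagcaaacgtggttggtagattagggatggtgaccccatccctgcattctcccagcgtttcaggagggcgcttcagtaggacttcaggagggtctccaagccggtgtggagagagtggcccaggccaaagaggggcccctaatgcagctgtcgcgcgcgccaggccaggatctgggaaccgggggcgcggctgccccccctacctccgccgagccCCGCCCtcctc
Cplx3: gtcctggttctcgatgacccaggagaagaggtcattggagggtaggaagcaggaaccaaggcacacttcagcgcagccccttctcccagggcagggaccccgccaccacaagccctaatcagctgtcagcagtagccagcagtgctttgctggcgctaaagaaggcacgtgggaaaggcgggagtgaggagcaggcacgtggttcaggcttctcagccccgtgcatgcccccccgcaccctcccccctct
Syn1: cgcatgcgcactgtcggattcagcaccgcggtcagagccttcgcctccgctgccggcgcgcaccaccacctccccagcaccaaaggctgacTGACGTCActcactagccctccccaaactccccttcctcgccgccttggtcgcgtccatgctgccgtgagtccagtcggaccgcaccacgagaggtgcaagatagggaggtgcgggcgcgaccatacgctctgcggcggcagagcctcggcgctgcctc
Ctbp2: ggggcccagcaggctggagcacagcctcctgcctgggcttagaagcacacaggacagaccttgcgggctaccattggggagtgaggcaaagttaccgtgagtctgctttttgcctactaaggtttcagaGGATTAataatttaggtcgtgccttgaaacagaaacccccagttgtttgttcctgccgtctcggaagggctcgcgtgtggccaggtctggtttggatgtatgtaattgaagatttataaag
Capitals mark 3 motifs searched on both strands, GGGCGG (Sp1 box), TGACGT (core of the cyclic AMP response element) and TAATCC (core bound by photoreceptor homeobox factors such as CRX). Cplx1 held 1 Sp1 box, written on this strand as CCGCCC, and Cplx3 held none of the 3. Syn1 held TGACGT and its reverse ACGTCA, which overlap. Ctbp2 held TAATCC on the other strand, as GGATTA. The Sp1 box occurred in 32.7% of the 32851 windows in the RefSeq table, TGACGT in 6.47% and TAATCC in 6.25%. RefSeq windows were matched for 26 of the 33 members, and of their 34 windows 52.9% held the Sp1 box, 8.82% TGACGT and 11.8% TAATCC. Repeated windows of a member with the same start were counted once. The 32851 windows were counted as listed, so the shares are not on the same basis. A match is a description of letters, not a site shown to be bound.

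Cplx1, a complexin gene of conventional synapses, was at 44.8, 72.0 and 50.7 RPKM in OIR 1, 2 and 3, against 96.4, 92.0 and 89.6 RPKM in Control 1, 2 and 3. OIR 2 stood between the other OIR libraries and the Control libraries, and the groups did not overlap. The mean was 39.7% lower, with a log2 fold change of -0.75 ± 0.165 (limma adjusted p 0.0257). Cplx2, also of conventional synapses, was at 44.0, 57.1 and 50.3 RPKM in OIR, against 66.2, 63.6 and 57.9 RPKM in Control. OIR 2 came within 1 RPKM of Control 3, and the log2 fold change was -0.31 ± 0.0932 (limma adjusted p 0.0429).

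The ribbon complexins did not pass. Cplx3, found in cones, rod bipolar cells and some amacrine cells, was at 152.2, 168.7 and 154.1 RPKM in OIR, against 198.4, 198.9 and 168.2 RPKM in Control. OIR 2 lay just above Control 3, and the log2 fold change of -0.25 missed the threshold (adjusted p 0.0582). Cplx3 was called lower with median-of-ratios scaling, with lens genes taken out of the total, and without OIR 2 or Control 3. Cplx4, the complexin gene of rods, was at 305.2, 261.7 and 297.8 RPKM in OIR, against 272.1, 262.6 and 224.1 RPKM in Control. OIR 2 was the lowest OIR library here, below 2 Control libraries, and the log2 fold change was 0.19 with an interval from -0.01 to 0.39 (adjusted p 0.167).

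**Figure D2:**
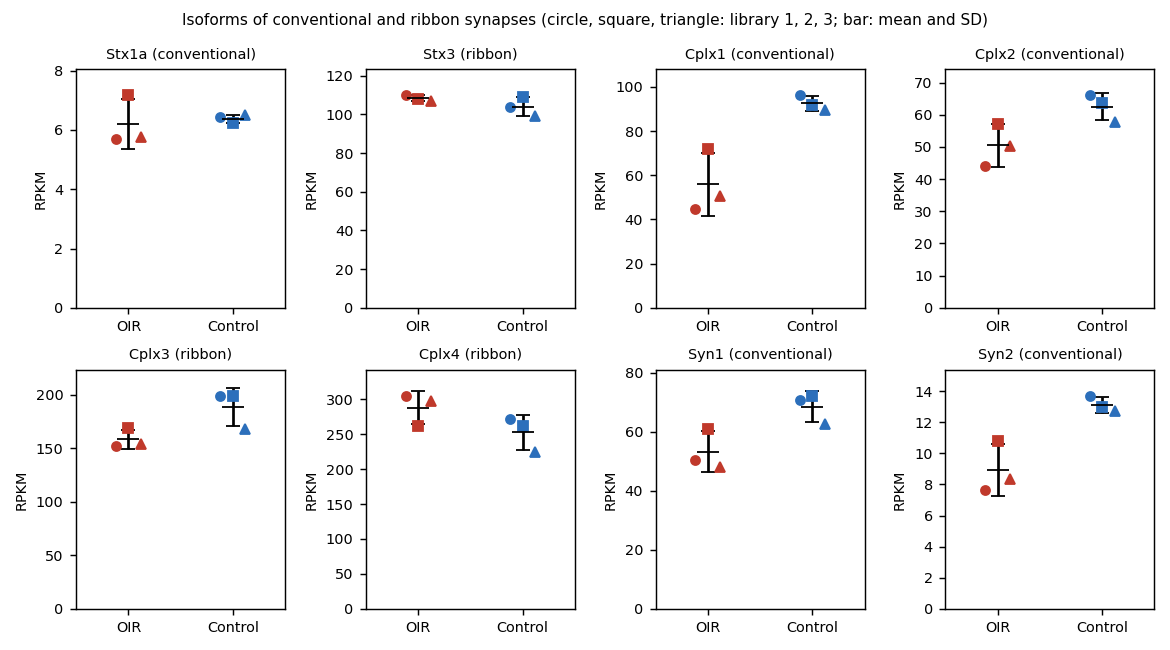
RPKM of 4 conventional and ribbon complexin genes, both syntaxins and 2 synapsins in each library, with OIR left and Control right and the mean and SD as bars. In Cplx1, Cplx2, Syn1 and Syn2 all 3 OIR points lie below all 3 Control points, while in Stx1a, Stx3, Cplx3 and Cplx4 the groups overlap.

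Both tested synapsin genes, which encode the proteins that tether vesicles in conventional terminals, fell. Syn1 was at 50.6, 61.1 and 48.0 RPKM in OIR, against 70.9, 72.2 and 62.6 RPKM in Control, a log2 fold change of -0.36 ± 0.0939 (limma adjusted p 0.0248). Syn2 was at 7.64, 10.8 and 8.38 RPKM in OIR, against 13.7, 13.0 and 12.7 RPKM in Control, a log2 fold change of -0.52 ± 0.106 (limma adjusted p 0.00980). Neither gene had an OIR value as high as its lowest Control value. Syn3 was below the minimum for testing, at 0.415, 0.432 and 0.459 RPKM in OIR, against 0.543, 0.516 and 0.429 RPKM in Control. Its values rest on 1101 to 1456 reads per library, spread over a recovered gene length of 72060 bases, against 12282 bases of exons in GENCODE M21, so its level per length is uncertain.

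Among the vesicle membrane proteins and Rab3 GTPases, Rab3a and Rab3c fell and the other 4 genes did not pass. Rab3a, the main vesicle GTPase gene of the family, was at 238.7, 276.2 and 247.4 RPKM in OIR, against 310.0, 324.3 and 280.9 RPKM in Control, with a log2 fold change of -0.26 ± 0.0815 (limma adjusted p 0.0462). Rab3c, its less abundant paralog, had the largest fall of the 32 genes. It was at 7.97, 13.5 and 7.89 RPKM in OIR, against 20.2, 18.5 and 16.1 RPKM in Control. OIR 2 stood apart from the other OIR libraries but below every Control library, and the log2 fold change was -0.87 ± 0.211 (limma adjusted p 0.0405). The other Rab3 paralogs were outside the member list and are named after their values were seen. Rab3b fell to 2.48 ± 0.263 RPKM in OIR, against 3.44 ± 0.514 RPKM in Control (limma adjusted p 0.0412). That call ended with no filter on low values and without OIR 1, OIR 3, Control 2 or Control 3. Rab3d was at 1.52 ± 0.186 RPKM in OIR and 1.14 ± 0.0572 RPKM in Control, higher without overlap but not past the threshold (adjusted p 0.0923).

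Syp, which encodes synaptophysin, an abundant protein of both synapse types, was at 587.0, 608.7 and 579.5 RPKM in OIR, against 628.8, 597.1 and 537.7 RPKM in Control. Its OIR values lay within the Control range, with an interval of the log2 fold change from -0.16 to 0.18. The SV2 genes encode vesicle glycoproteins. Sv2a averaged 128.9 ± 15.3 RPKM in OIR and 155.1 ± 11.9 RPKM in Control and missed the threshold (limma adjusted p 0.0647). It was called lower with median-of-ratios scaling or with lens genes taken out of the total. Sv2b averaged 77.0 ± 3.25 RPKM in OIR and 78.8 ± 7.95 RPKM in Control, and Sv2c 5.11 ± 0.769 RPKM in OIR and 5.81 ± 1.2 RPKM in Control, both with overlapping groups.

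Of the 7 active zone and ribbon genes, Rims1 fell and the other 6 did not pass. Rims1 encodes a scaffold that ties Rab3 on vesicles to the calcium channels. It was at 8.93, 13.9 and 8.51 RPKM in OIR, against 17.8, 16.5 and 16 RPKM in Control, so that the groups did not overlap. The log2 fold change was -0.66 ± 0.169 (limma adjusted p 0.0368). Its paralog Rims2, the RIM gene most prominent at photoreceptor ribbons, was at 14.5, 15.3 and 14.0 RPKM in OIR, against 18.6, 18.8 and 15.3 RPKM in Control. OIR 2 and Control 3 nearly met, and the log2 fold change of -0.25 missed the threshold (adjusted p 0.0645), which it passed as lower with both other scalings.

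The large scaffold genes did not pass. Bsn, the gene of bassoon, which anchors the ribbon in photoreceptors, averaged 8.69 ± 0.357 RPKM in OIR and 8.93 ± 1.52 RPKM in Control. Pclo, the gene of piccolo, averaged 8.28 ± 0.510 RPKM in OIR and 9.53 ± 0.977 RPKM in Control (limma adjusted p 0.168). Pclo was called lower without Control 3 (adjusted p 0.0460) and without both lens-rich libraries (0.0178). The vesicle priming genes among the members, Unc13a and Unc13b, were likewise not past the threshold. Unc13a averaged 20.8 ± 1.60 RPKM in OIR and 18.4 ± 0.482 RPKM in Control (adjusted p 0.135), and Unc13b 20.9 ± 1.05 RPKM in OIR and 21.3 ± 1.62 RPKM in Control (adjusted p 0.860). Outside the member list, the priming genes Unc13c and Cadps are named after their values were seen. Unc13c fell to 5.68 ± 0.964 RPKM in OIR, against 8.01 ± 0.746 RPKM in Control (limma adjusted p 0.0198). Cadps fell to 56.6 ± 8.66 RPKM in OIR, against 78.7 ± 4.06 RPKM in Control (limma adjusted p 0.0104). The Unc13c call ended with no filter and without OIR 1, OIR 3, Control 1 or Control 2, and that of Cadps without OIR 1.

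Ctbp2 gives rise to RIBEYE and to the transcriptional corepressor CtBP2 from separate start sites. In GENCODE M21, the transcript that begins at the end of the printed Ctbp2 window encodes 988 residues, while those from the upstream starts encode 420 and 445. The deposited value is one per gene, so RIBEYE and CtBP2 RNA cannot be told apart in it. Ctbp2 was at 15.5, 14.8 and 15.8 RPKM in OIR, against 15.0, 15.9 and 13.3 RPKM in Control. The groups overlapped, and the log2 fold change was 0.06 with an interval from -0.11 to 0.23 (limma adjusted p 0.611). Its recovered gene length was 20042 bases, against 6220 bases of exons in GENCODE M21, so its level per length is uncertain too.

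**Figure D3:**
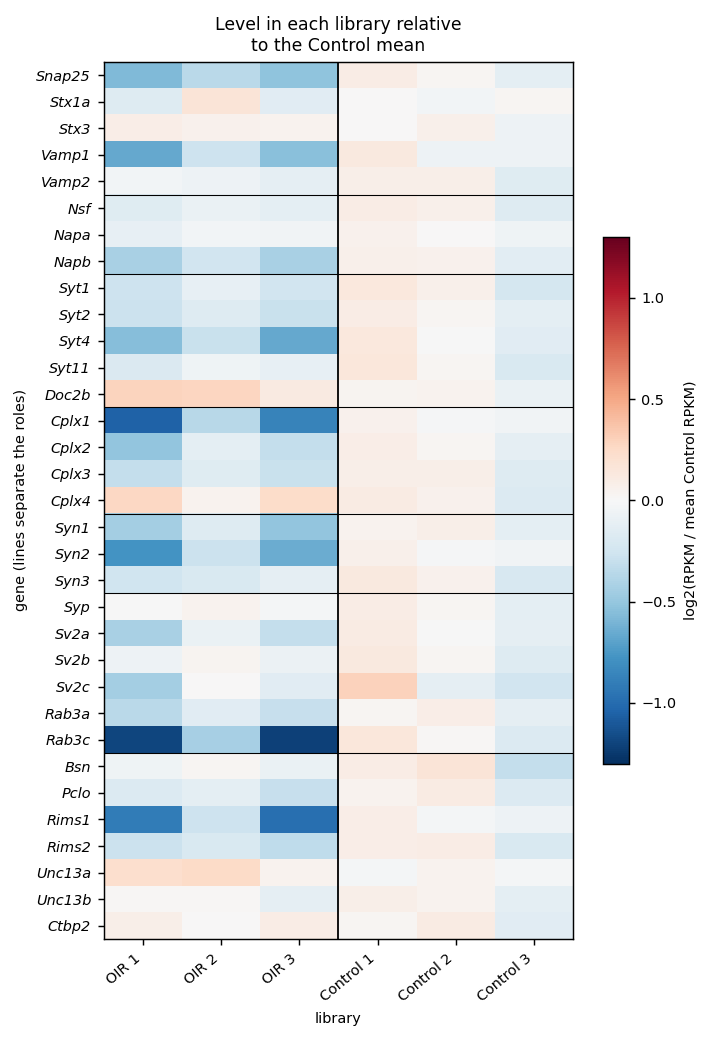
Level of each of the 33 genes in each library, as the log2 ratio of RPKM to the Control mean, with OIR libraries left, Control libraries right and lines between roles. The darkest fields are Rab3c, Cplx1 and Rims1 in OIR 1 and OIR 3, and OIR 2 is paler in the 11 genes that fell.

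By synapse class, 4 of the 5 tested conventional genes fell and 0 of the 4 ribbon genes passed in either direction, where 7.22% of all genes tested were lower and 11.6% higher. The median log2 fold change was -0.36 over the conventional genes and 0.06 over the ribbon genes, against 0.03 over all genes tested. At an unadjusted p under 0.05, 1 ribbon gene was lower, Cplx3, and limma-voom called 0 of the 4. Over the 23 genes assigned to neither class, 7 fell and the median was -0.18. With 1 library left out, the conventional genes called lower numbered 2 without OIR 1, 1 each without OIR 3, Control 1 or Control 2, and 3 without Control 3. They numbered 2 with no filter on low values. Cplx3 was called lower, making 1 ribbon gene, with either other scaling and without OIR 2 or Control 3, and without both lens-rich libraries Cplx4 was also called higher. These counts are a description, and a conventional gene was tested against a ribbon gene only in 3 ratios of paralogs.

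Ratios of paralogs within a library do not depend on how the libraries are scaled. Cplx1 over Cplx3 was 0.295, 0.427 and 0.329 in OIR 1, 2 and 3, against 0.486, 0.463 and 0.533 in Control 1, 2 and 3. Cplx2 over Cplx4 was 0.144, 0.218 and 0.169 in OIR, against 0.243, 0.242 and 0.258 in Control. Both ratios were lower in every OIR library than in every Control library, and both differed by -0.51 in the mean log2 ratio of OIR minus Control. Each had an exact two-sided permutation p of 0.10, the smallest that 3 against 3 libraries can give, and 0.133 adjusted over the 4 ratios. The design therefore cannot take such a ratio past 0.05.

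Unc13a over Unc13b, the 2 priming genes among the members, was 0.997, 1.01 and 0.959 in OIR, against 0.807, 0.861 and 0.929 in Control. This ratio was higher in every OIR library, by 0.20 in the mean log2 ratio (exact permutation p 0.10, adjusted 0.133). Stx1a over Stx3 was 0.0515, 0.0665 and 0.0538 in OIR, against 0.0617, 0.0572 and 0.0655 in Control. Here the groups overlapped, and the difference of -0.11 had an exact permutation p of 0.50.

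**Figure D4:**
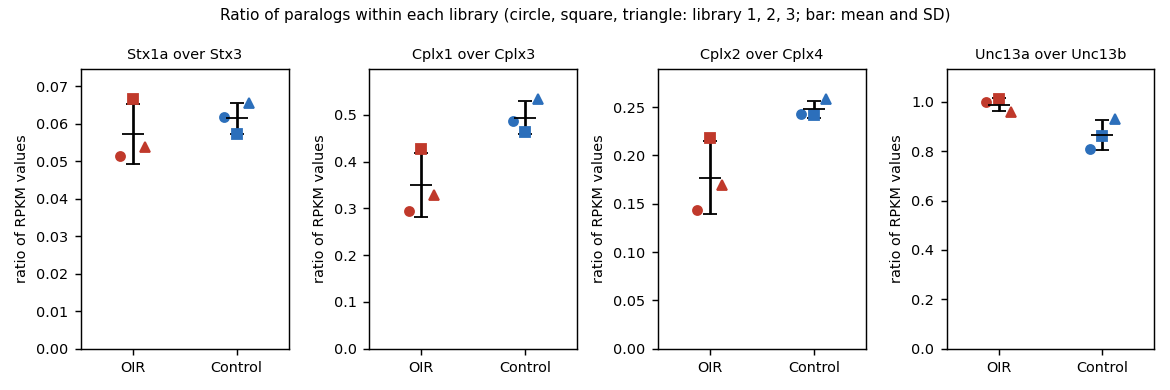
Ratio of RPKM values of 4 pairs of paralogs in each library, with OIR left and Control right and the mean and SD as bars. Cplx1 over Cplx3 and Cplx2 over Cplx4 lie lower in all 3 OIR libraries, Unc13a over Unc13b lies higher in all 3, and Stx1a over Stx3 overlaps.

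Of 93 other presynaptic genes, 92 were tested, of which 19 (20.7%) were lower and 6 (6.52%) higher in OIR, against 7.22% and 11.6% of all genes tested. Their median log2 fold change was -0.08. The sensor and priming genes outside the member list had 7 of 13 lower and 0 higher (1 higher at an unadjusted p under 0.05, and 0 with limma-voom). The genes of vesicle endocytosis and related proteins had 1 of 18 lower. Slc17a8, the gene of the vesicular glutamate transporter of a set of amacrine cells, was at 3.24, 3.68 and 2.73 RPKM in OIR, against 5.73, 5.90 and 5.16 RPKM in Control (log2 fold change -0.65, limma adjusted p 0.00233). Every OIR value of Slc17a8 lay below every Control value.

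Synpr, the gene of the vesicle protein synaptoporin, fell to 53.8 ± 5.32 RPKM in OIR, against 78.0 ± 8.41 RPKM in Control (limma adjusted p 0.00564). Stxbp6, the gene of the SNARE-binding protein amisyn, fell to 3.65 ± 0.488 RPKM in OIR, against 5.60 ± 0.237 RPKM in Control. Cacnb4, a calcium channel beta subunit gene, fell to 1.98 ± 0.262 RPKM in OIR, against 3.31 ± 0.460 RPKM in Control.

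Of 11 genes of presynaptic calcium channels and related proteins, 2 rose (18.2%, against 11.6% of all genes tested). Of the same 11, 1 fell (9.09%, against 7.22%) and 8 did not pass. The 2 that rose belong to the channel of photoreceptor ribbons. Cacna1f, the pore subunit gene, rose to 66.4, 60.8 and 60.6 RPKM in OIR 1, 2 and 3, against 47.3, 49.0 and 46.5 RPKM in Control 1, 2 and 3, with a log2 fold change of 0.39 ± 0.0636 (limma adjusted p 0.00375). Cacna2d4, the auxiliary subunit gene, rose to 87.4 ± 4.40 RPKM in OIR, against 72.8 ± 5.55 RPKM in Control (limma adjusted p 0.0326). Its call ended with no filter and without OIR 1, OIR 3 or Control 1, at adjusted p up to 0.148. Cabp4, the gene of the calcium-binding regulator of this channel, did not pass, at 143.4 ± 4.26 RPKM in OIR and 129.3 ± 11.1 RPKM in Control. The other named genes that rose have broad, largely non-neuronal expression. Snap23, the widely expressed relative of Snap25, rose to 5.95 ± 0.649 RPKM in OIR, against 4.32 ± 0.293 RPKM in Control. Stxbp2, a Munc18 gene of non-neuronal secretion, rose to 14.3 ± 1.54 RPKM in OIR, against 10.3 ± 0.568 RPKM in Control, and Syngr2, a non-neuronal synaptogyrin gene, to 5.06 ± 0.903 RPKM in OIR, against 3.30 ± 0.245 RPKM in Control. The call of Snap23 ended without OIR 1, OIR 3, Control 1 or Control 2, at adjusted p up to 0.0856, and that of Syngr2 without OIR 1 or Control 1, at up to 0.0740.

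Marker counts are read against 11.6% of all genes tested that were higher and 7.22% that were lower. Of 13 amacrine markers, 10 were lower, and their summed level was 597.2 to 798.8 RPKM in OIR and 857.0 to 950.3 RPKM in Control. Of 11 ganglion cell markers, 4 were lower, with sums of 521.6 to 784.6 RPKM in OIR and 829.3 to 921.1 RPKM in Control. In both lists OIR 2 had the highest sum of the OIR libraries. Of 12 bipolar cell markers, 6 were lower, with sums of 570.2 to 620.0 RPKM in OIR and 640.9 to 748.5 RPKM in Control, and of 5 tested horizontal cell markers 2 were lower. Of 10 rod markers, 2 were higher and 0 lower by limma (0 lower also at an unadjusted p under 0.05), with sums of 13425 to 13855 RPKM in OIR and 11300 to 13650 RPKM in Control. Of 10 cone markers 2 were higher and 1 lower, so the rod counts and these cone counts lay near the shares over all genes. At an unadjusted limma p under 0.05, however, 6 cone markers were higher and 1 lower, against 20.0% and 14.0% of all genes tested. Cone sums were 1085 to 1278 RPKM in OIR and 914.1 to 976.8 RPKM in Control. Of 10 Müller cell markers 3 were higher and 5 lower. Microglial markers were higher in 8 of 9 and endothelial markers in 9 of 10 tested genes, beside Snap23, Stxbp2 and Syngr2. Each sum weighs its most abundant markers most. Calb2 alone averaged 293.9 RPKM in OIR and 402.4 RPKM in Control within the amacrine sums. Gnb3 averaged 309.4 RPKM in OIR and 190.1 RPKM in Control within the cone sums. No marker on these lists was at 0 in any library. The part of the cell make-up in the presynaptic results was not tested.

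Single libraries weighed on the calls. OIR 2 was the highest OIR library in all 11 genes that fell and in 27 of the 32 tested members, and Control 3 was the lowest Control library in 10 of the 11 and in 30 of the 32. These are also the 2 lens-rich libraries. With median-of-ratios scaling, 15 members were lower, and with lens genes taken out of the total 14 were lower, Cplx3, Rims2 and Sv2a being added under both. Without OIR 1, OIR 3, Control 1 or Control 2, the members called lower numbered 3, 4, 2 and 5, and without both lens-rich libraries 20 were lower and 1, Cplx4, was higher. Over all genes, the counts without those libraries were 410 higher and 198 lower without OIR 1, 585 and 327 without OIR 3, 646 and 249 without Control 1, 945 and 406 without Control 2, and 1939 and 1877 without both lens-rich libraries.

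Snap25 and Syn2 kept their calls with each library left out, and under all 13 alternative fits. The highest adjusted p with a library left out was 0.0401 for Snap25 and 0.0464 for Syn2. The calls of Vamp1 and Syt4 ended without OIR 1 or Control 1, at adjusted p up to 0.0513 and 0.0592, and that of Napb without OIR 1, OIR 3 or Control 1, at up to 0.0637. The calls of Cplx2, Syn1, Rab3a and Rab3c ended without OIR 1, OIR 3, Control 1 or Control 2, at adjusted p up to 0.174, 0.107, 0.199 and 0.137. Cplx1 lost its call without OIR 3 or any 1 Control library, at up to 0.0967, and Rims1 without any 1 library other than OIR 2, at up to 0.131. With no filter on low values the calls of Cplx2, Syn1, Rab3a and Rims1 ended, and with limma-voom those of Rab3c and Rims1. All 11 genes kept a negative log2 fold change in all 13 fits.

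**Figure D5:**
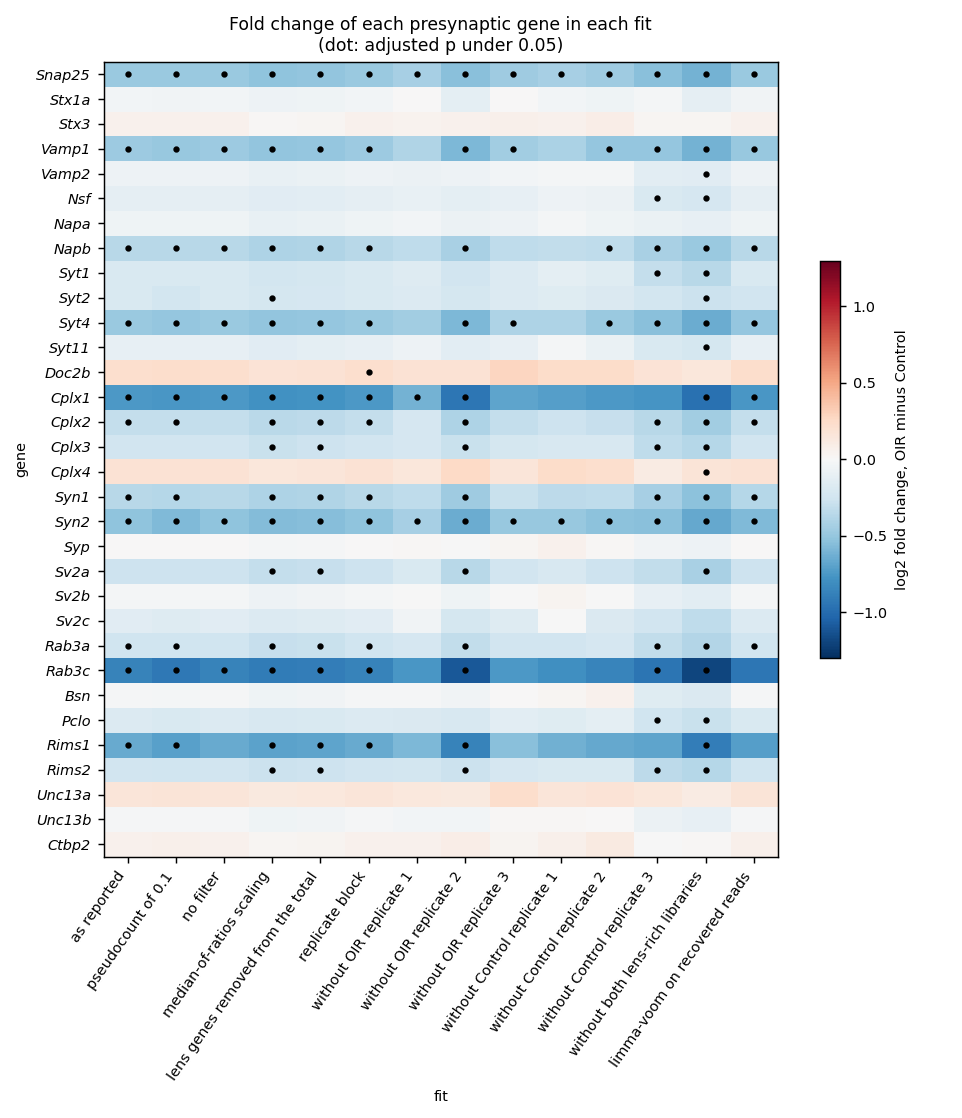
Log2 fold change of OIR minus Control for the 32 tested genes (rows) in the fit as reported and in 13 alternative fits (columns), with a dot where the adjusted p was under 0.05. Snap25 and Syn2 carry a dot in every column, and the columns that leave out OIR 1, OIR 3, Control 1 or Control 2 hold the fewest dots.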

How the data were processed

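The authors deposited RPKM for every gene symbol in each library. The submitters' processing notes name TopHat2 2.0.12 and Bowtie2 2.0.6. The sources used here give no counting program, genome build or annotation. Since the protocol text in the labels is about another species, RNA selection and strand are uncertain, and reads of overlapping genes (Timp3 lies within Syn3) cannot be separated by strand.

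Relative depth was read from the steps between low values, each worth 1 read. GENCODE M21 transcript lengths, supported by 113 genes, gave the absolute depth. The smallest length that made a gene's 6 values whole within 0.02 of a read gave its reads. This held for 99.99% of the 17953 genes above 0, and lengths and reads are inferred. Intervals cover the spread of libraries.

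Differences were tested on log2(RPKM + 1) in limma 3.58.1 (R 4.3.3, both trend and robust turned on), fitted to genes with at least 1 RPKM in at least 3 libraries, with group as the only term. It was two-sided with Benjamini-Hochberg adjustment over 12112 genes and a threshold of 0.05, and was checked on simulated data. Fold changes on this scale understate the change of low genes. Ratios of paralogs had exact permutation tests over libraries. The members, the synapse classes and the lists were chosen with earlier results of these data known. All 33 members are named. Of the 93 other presynaptic genes, the 4 with the smallest adjusted p in each direction and Cacna1f, Cacna2d4 and Cabp4 are named. Rab3b, Rab3d, Unc13c and Cadps were added after their values were seen. Limma-voom on recovered reads was chosen after seeing the data, and the other alternatives came before these fits. No library was identical to another.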

Additional observations from a re-analysis of the deposited data

How the results depend on the processing

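The 11 members lower in OIR became 7 with no filter, 20 without both lens-rich libraries and 0 when a log2 change of 1 or more in size was also required, and 2 to 14 with 1 library left out. Members higher numbered 1 with the replicate block (Doc2b) and 1 without both lens-rich libraries (Cplx4), and 0 in the other fits. Of the other presynaptic genes, lower calls were 8 with no filter, 29 with median-of-ratios scaling, 42 without both lens-rich libraries and 0 at that fold change, and 5 to 27 with 1 library left out, while higher calls were 10 without both lens-rich libraries, 0 at that fold change and 2 to 8 with 1 left out. Over all genes, 529 were lower with no filter, 1313 with median-of-ratios scaling and 1877 without both lens-rich libraries. At a log2 fold change of at least 1, 115 were higher and 4 lower. With 1 library left out, 410 to 1645 were higher and 198 to 1281 lower. The cause of these shifts was not tested, apart from the fewer libraries or the added fold limit themselves.

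Same-numbered libraries did not consistently deviate together (correlations of 0.222, -0.440 and -0.414). The correlation of OIR 2 with Control 3, the lens-rich libraries, was 0.493. With 3 libraries a group, such correlations cannot show whether the numbers pair libraries. The replicate block called 11 members lower, 1222 genes higher and 809 lower, and gave the complexin ratios an exact paired p of 0.250. That p is the smallest that 3 pairs can give. The 4 paralog ratios kept their sign in every alternative, from -0.66 to -0.40 for Cplx1 over Cplx3, -0.67 to -0.37 for Cplx2 over Cplx4, 0.15 to 0.25 for Unc13a over Unc13b and -0.22 to -0.04 for Stx1a over Stx3. The 546 alternative fits covered the named genes other than Syn3, Rab3b, Rab3d, Unc13c and Cadps. Of these fits, 472 kept their side of the threshold, 48 lost a call, 26 gained one and 0 of the called genes changed sign. With 3 libraries a group, small differences may go undetected.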

Other observations

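Recovered gene lengths were compared with the summed exon length of each member in GENCODE M21. They were close for Cplx1 (2192 against 2189 bases) and Pclo (22201 against 22457 bases), and far apart for Syn3 and Ctbp2. Snap25 and Vamp1 had recovered lengths of 2431 and 2742 bases, against 6791 and 10167 bases of exons in GENCODE M21. Levels per length of these genes therefore depend on the gene model behind the deposited values. The length cancels in a ratio of RPKM between libraries of 1 gene. The gene model also sets which reads are counted, and its effect on differences between libraries was not tested.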
